A study of Mus musculus with 22 samples.

Results

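The linker histone H1 genes of mouse are described here in developing T cells with and without the transcription factor E2a. The 7 members, out of 43430 genes in each table, are H1f0, H1fx, Hist1h1a, Hist1h1b, Hist1h1c, Hist1h1d and Hist1h1e, matched from Ensembl identifiers to symbols. They were chosen by their measured FPKM (fragments per kilobase of gene, scaled to the reads of the library) in the same comparisons that are reported below. Their fold changes are therefore given as descriptions without p-values. Where the text says that a linker histone gene was called in a fit over all genes, that too is a description and supports nothing; adjusted p-values are printed only for other genes.

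The cells were thymocytes sorted as CD45.1+ and positive for both CD4 and CD8. At this double-positive stage the T cell receptor alpha genes are rearranged. At 4 weeks of age there were 3 VcKO libraries (VavCre E2aF/F) with 3 WT libraries, and 3 LcKO libraries (LckCre E2aF/F) with 3 WT libraries. At 8 weeks there were 4 TPT libraries, 3 VcKO libraries and 3 WT libraries. TPT mice were VavCre E2aF/F animals that were sublethally irradiated and given WT bone marrow competitor cells 4 weeks before analysis, and the labels do not say which of their cells carried CD45.1. All WT libraries came from E2aF/F mice for which no Cre is named, so every group carried the floxed allele. Vav drives Cre in blood cells generally and Lck drives it in T cell precursors, so the deletions start at different stages. The labels name no animal for a library, so the error values measure the spread between these libraries only.

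Linker histones bind the nucleosome where DNA enters and leaves it and promote the folding of the chromatin fibre. The 5 Hist1h1 genes are replication-dependent: they are transcribed mainly in S phase, and their mRNA is known to end in a stem-loop in place of a poly(A) tail. H1f0 and H1fx are replication-independent genes with polyadenylated mRNA. H1f0 is known to accumulate in cells that stop dividing and differentiate. E2a (gene symbol Tcf3) encodes E proteins, basic helix-loop-helix factors that bind the E-box, CANNTG.

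The sequences next to the RefSeq start sites are shown because CCAAT was found there in every Hist1h1 gene and not in H1f0 or H1fx. Each line gives the 130 bases before the RefSeq start site in GRCm38.p6, 5′ to 3′ on the strand of the gene. Capitals mark AAACACA (the H1 box), CCAAT and TATAAA, searched on both strands; none of these letters overlap each other. All 7 genes were found in the RefSeq promoter table.
H1f0: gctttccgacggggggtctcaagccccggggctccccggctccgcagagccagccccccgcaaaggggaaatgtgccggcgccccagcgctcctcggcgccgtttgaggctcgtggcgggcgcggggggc
H1fx: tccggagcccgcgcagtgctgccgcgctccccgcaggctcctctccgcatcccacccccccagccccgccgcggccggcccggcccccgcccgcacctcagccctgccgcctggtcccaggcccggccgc
Hist1h1a: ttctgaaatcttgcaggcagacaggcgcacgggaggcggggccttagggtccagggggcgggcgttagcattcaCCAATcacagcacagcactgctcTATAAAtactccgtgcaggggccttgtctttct
Hist1h1b: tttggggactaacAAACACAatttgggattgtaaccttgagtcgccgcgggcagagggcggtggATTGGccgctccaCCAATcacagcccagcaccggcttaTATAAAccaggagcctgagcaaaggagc
Hist1h1c: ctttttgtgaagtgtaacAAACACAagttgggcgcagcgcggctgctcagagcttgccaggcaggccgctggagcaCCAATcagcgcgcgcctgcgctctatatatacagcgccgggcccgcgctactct
Hist1h1d: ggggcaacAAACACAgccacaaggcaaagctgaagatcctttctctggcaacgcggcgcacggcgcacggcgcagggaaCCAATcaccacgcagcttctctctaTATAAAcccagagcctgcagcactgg
Hist1h1e: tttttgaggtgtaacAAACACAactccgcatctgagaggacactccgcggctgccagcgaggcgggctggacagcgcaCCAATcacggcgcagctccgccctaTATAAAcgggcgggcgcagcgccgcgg
These windows lie at chr15:79028082-79028211, plus strand, for H1f0 and at chr6:87981483-87981612, minus strand, for H1fx. For Hist1h1a the window is chr13:23763538-23763667, plus strand, and for Hist1h1b it is chr13:21780626-21780755, minus strand. For Hist1h1c it is chr13:23738677-23738806, plus strand, for Hist1h1d chr13:23554902-23555031, plus strand, and for Hist1h1e chr13:23622559-23622688, minus strand.

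The H1 box began at -117 in Hist1h1b, -112 in Hist1h1c, -122 in Hist1h1d and -115 in Hist1h1e, counted from the start site. CCAAT began between -56 and -51 in all 5 Hist1h1 genes, and TATAAA between -33 and -26 in all of them except Hist1h1c. In the full 300 bases around the RefSeq start site, H1f0 and H1fx held 0 matches to any of the 3 motifs. Some RefSeq start sites differ from those of GENCODE M21. The H1f0 window ends before the annotated start at chr15:79028450, so the bases next to that start were not searched. The 130-base windows of H1fx and Hist1h1d lie inside their annotated exons. The contrast between the genes holds for the searched windows only. AAACACA is present in 7.14% of the 27025 promoters of the same length, CCAAT in 37.9% and TATAAA in 14.2%. The E-box CANNTG was found in 72.1% of those promoters. It had 0 matches in those of H1f0, H1fx, Hist1h1a, Hist1h1c and Hist1h1d. Hist1h1b held 1 at -243 (CAGTTG) and Hist1h1e 1 at -102 (CATCTG). A match is a string of letters and not a measured binding site, and other regions of these genes were not searched.

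The stem-loop motif GGNNNTTTNNAGNNCC, in capitals below, was searched in the GENCODE M21 transcripts because it marks mRNA without a poly(A) tail. It was found on the sense strand of Hist1h1c, Hist1h1d and Hist1h1e, 5′ to 3′.
Hist1h1c: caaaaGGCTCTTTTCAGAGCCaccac
Hist1h1d: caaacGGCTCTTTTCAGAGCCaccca
Hist1h1e: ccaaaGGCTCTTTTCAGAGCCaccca
In these genes the annotated transcript goes on for 840 bases (Hist1h1c), 4884 bases (Hist1h1d) and 1153 bases (Hist1h1e) after the motif. The annotated Hist1h1a transcript stops inside the motif and that of Hist1h1b stops at its stop codon, so their 3′ ends could not be searched. H1f0 and H1fx had no match. The motif was present in 40 of 61 core histone genes (65.6%) and in 377 of 21877 protein-coding genes (1.72%). How the RNA was primed is not stated in the labels, and that decides how much mRNA without a poly(A) tail enters a library.

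Read totals worked out from the FPKM ranged from 5.49 to 37.5 M per library, where M stands for 1000000 reads. Tcf3, the targeted gene, was lower in every E2a-deficient library, at 1.15 to 2.32 FPKM in the 13 VcKO, LcKO and TPT libraries against 6.39 to 8.22 FPKM in the 9 WT libraries. The 9 genes listed as double-positive markers were detected in all groups, and their summed FPKM was 3014 to 3662 in VcKO and 4155 to 4257 in WT at 4 weeks. In LcKO the sum was 3775 to 3906, also below its WT at 4117 to 4215. At 8 weeks that sum was 1299 to 3213 in TPT, 1908 to 2198 in VcKO and 4100 to 4450 in WT. Sex was not the same in the groups: by Xist and Ddx3y, all 3 VcKO libraries at 8 weeks were male and all 3 WT libraries female, so sex and genotype cannot be told apart in that comparison. TPT held 2 of each sex. TPT replicate 2 stood apart from the other TPT libraries in H1f0 and H1fx, and the differences of these genes in TPT are given with and without it. Medians over the members and correlations between genes are given only with that library. TPT replicate 3 stood apart in the genes of the cell cycle: its 21 S phase genes summed to 283 FPKM, against 995 to 1213 FPKM in the other 3 TPT libraries, and its 12 mitosis genes to 88.5 FPKM, against 314 to 398 FPKM. Without it limma called 3535 genes in VcKO and 3814 genes in TPT against WT, of 11472 tested, in place of 1059 and 1069, since the 8-week groups share 1 estimate of the spread.

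Among the replication-independent genes, H1f0 was the most abundant linker histone transcript in every library. H1f0 (ENSMUSG00000096210) lies on chr15:79028450-79030504, plus strand, in mm10, as a single exon, and an antisense gene, Gm49544, overlaps it. At 4 weeks its level was 20.9, 21.0 and 15.8 FPKM in VcKO, against 66.2, 44.4 and 40.0 FPKM in WT. Every VcKO library was below every WT library, and the difference was -1.31 ± 0.202 on the log2(FPKM + 1) scale (SE, n = 3 each). In the Lck deletion the level was 59.4, 83.9 and 66.8 FPKM in LcKO, against 76.7, 64.7 and 80.5 FPKM in WT. Those groups overlapped, with a difference of -0.09 ± 0.142.

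At 8 weeks the direction in VcKO was the opposite one. H1f0 had 5.06, 195, 10.9 and 9.17 FPKM in TPT, 113, 227 and 128 FPKM in VcKO, and 23.8, 26.4 and 43.0 FPKM in WT. All 3 VcKO libraries were above all WT libraries, whereas 3 TPT libraries were below all of the other 8-week libraries and the fourth, replicate 2, lay within the VcKO range. The log2 difference was 2.27 ± 1.08 for VcKO against WT, -0.67 ± 1.01 for TPT against WT and -2.94 ± 1.01 for TPT against VcKO (n = 4 TPT, 3 VcKO and 3 WT). Without TPT replicate 2 the last pair of values became -1.78 and -4.05. The read counts behind these values were 158 to 8741 in TPT, 4937 to 7446 in VcKO and 654 to 2071 in WT.

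H1f0 lies on chromosome 15, and the level of that chromosome relative to WT differed between groups. For each library and gene expressed in WT, the log2(FPKM + 1) difference from the WT mean of the same table was taken. The median of this difference over chromosome 15 genes stood above its autosomal median by 0.25 to 0.30 (log2) in VcKO at 4 weeks and by 0.57 to 0.70 in VcKO at 8 weeks. It stood 0.52 to 0.58 above it in TPT and at -0.00 to 0.03 in LcKO. In WT it was at -0.02 to 0.02, where each library was set against the other WT libraries of its table. H1f0 itself was lower in VcKO than in WT at 4 weeks and higher at 8 weeks, and its 4 TPT libraries ran from 5.06 to 195 FPKM. The part of the chromosome in the H1f0 values was not tested in any group.

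**Figure D1:**
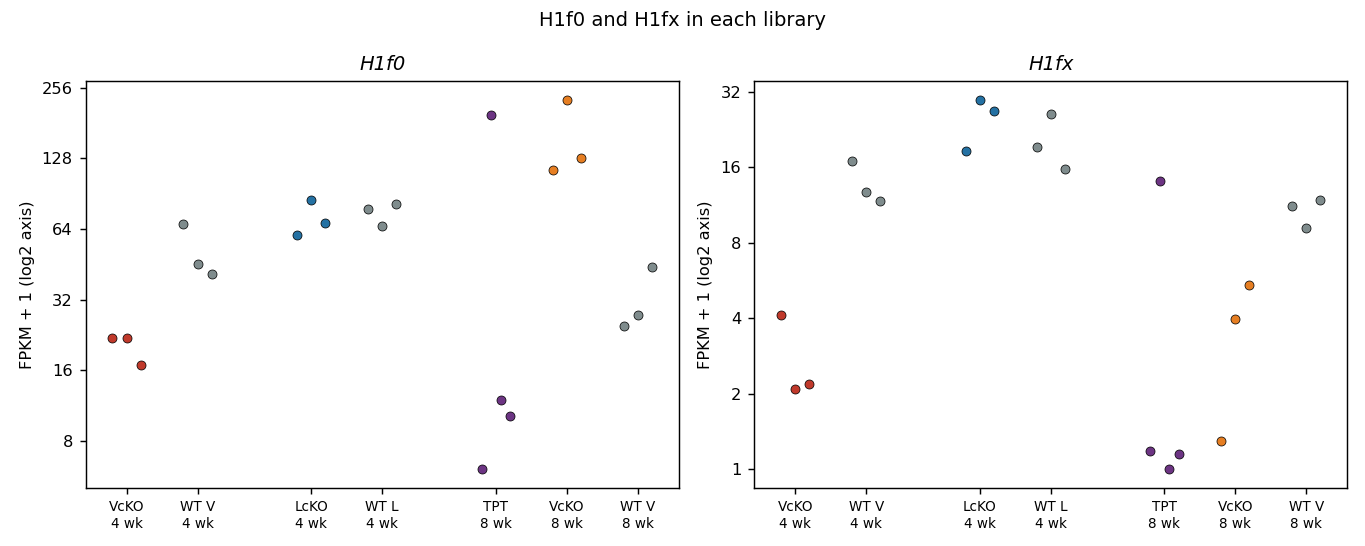
Level of H1f0 and H1fx in each library, as FPKM + 1 on a log2 axis; each dot is 1 library and the x axis gives the groups (V and L name the WT sets of the Vav and Lck tables). VcKO at 4 weeks lies below WT for both genes, and 1 TPT library, at 195 FPKM of H1f0 and 13.1 FPKM of H1fx, stands away from the other 3.

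H1fx, now named H1f10 by RefSeq, encodes the H1X linker histone. It lies on chr6:87980421-87981637, minus strand, as a single exon (ENSMUSG00000044927), and the annotated genes Gm5577 and Gm47286 overlap it. At 4 weeks H1fx was 3.13, 1.08 and 1.18 FPKM in VcKO, against 15.9, 11.8 and 10.7 FPKM in WT. These values rest on 124, 41 and 51 reads in VcKO and on 661, 511 and 489 reads in WT. The groups did not overlap and differed by -2.36 ± 0.283 (SE, n = 3 each), the largest difference of any linker histone gene at 4 weeks. In LcKO the level was 17.6, 28.8 and 25.8 FPKM, against 18.2, 25.1 and 14.7 FPKM in WT, with overlapping groups and a difference of 0.31 ± 0.239.

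At 8 weeks H1fx was 0.181, 13.1, 0 and 0.153 FPKM in TPT, 0.300, 2.97 and 4.45 FPKM in VcKO, and 10.2, 8.19 and 10.8 FPKM in WT. The reads were 3, 312, 0 and 3 in TPT, 7, 52 and 102 in VcKO, and 217, 108 and 278 in WT. H1fx was thus close to absent in 3 TPT libraries and above every WT library in replicate 2. All VcKO libraries were below all WT libraries, with a difference of -1.81 ± 0.952. TPT differed from WT by -2.35 ± 0.891 and from VcKO by -0.54 ± 0.891. Without TPT replicate 2 these became -3.27 and -1.46. That library had a Tcf3 level of 1.31 FPKM, within the range of the other TPT libraries, and the lowest Rag2 level of the 4, at 1.84 FPKM.

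H1f0 and H1fx followed different patterns. Both were lower in VcKO than in WT at 4 weeks, and neither group pair was separated in the Lck deletion. At 8 weeks VcKO was higher in H1f0 and lower in H1fx. The effect of the Vav deletion minus that of the Lck deletion at 4 weeks was -1.23 for H1f0 and -2.67 for H1fx. The effect at 8 weeks minus that at 4 weeks was 3.58 for H1f0 and 0.55 for H1fx.

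Among the replication-dependent genes, Hist1h1c had the highest level in 20 of 22 libraries. Hist1h1c (RefSeq name H1f2, ENSMUSG00000036181) lies on chr13:23738808-23740367, plus strand, as a single exon. At 4 weeks it had 7.39, 2.94 and 6.47 FPKM in VcKO, against 7.67, 7.77 and 6.48 FPKM in WT. It had 7.68, 11 and 9.96 FPKM in LcKO, against 8.01, 9.35 and 15 FPKM in WT. Both pairs of groups overlapped, with differences of -0.40 ± 0.275 in VcKO and -0.13 ± 0.231 in LcKO (SE, n = 3 each).

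At 8 weeks Hist1h1c was 2.02, 2.84, 0.755 and 2.38 FPKM in TPT, 8.73, 8.21 and 11.5 FPKM in VcKO, and 5.91, 9.17 and 8.88 FPKM in WT. All 4 TPT libraries were below all VcKO and WT libraries, and VcKO and WT overlapped. TPT differed from WT by -1.62 ± 0.269 and from VcKO by -1.85 ± 0.269, while VcKO differed from WT by 0.23 ± 0.288. Hist1h1c was the only member for which TPT replicate 2, at 2.84 FPKM, stood with the other TPT libraries away from WT. Without that library the differences from WT and VcKO were -1.76 and -1.99, and without TPT replicate 3, which had the lowest level, they were -1.38 and -1.61. The reads were 43, 87, 24 and 60 in TPT, 261, 184 and 339 in VcKO, and 162, 155 and 292 in WT.

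The other 4 replication-dependent genes were low in every library. Their 88 values ranged from 0 to 5.89 FPKM with a median of 1.23 FPKM, and the median value rested on 17 reads. Hist1h1e (H1f4, ENSMUSG00000051627, chr13:23620629-23622558, minus strand) overlaps the core histone gene Hist1h2be and the gene Gm11398. At 4 weeks Hist1h1e was 2.01, 1.93 and 2.25 FPKM in VcKO, against 1.65, 1.54 and 1.57 FPKM in WT. All 3 VcKO libraries were above all WT libraries, by 0.24 ± 0.0735 on the log2 scale. In LcKO it was 1.34, 4.39 and 3.26 FPKM, against 0.603, 1.80 and 4.10 FPKM in WT, and the groups overlapped. At 8 weeks it was 1.67, 1.16, 0.656 and 0.993 FPKM in TPT, 1.95, 1.67 and 3.41 FPKM in VcKO, and 0.914, 0.987 and 0.951 FPKM in WT. VcKO lay above WT by 0.74 ± 0.228 without overlap, and TPT lay below VcKO by a difference of -0.65 ± 0.213 and overlapped WT.

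Hist1h1d (H1f3, ENSMUSG00000052565, chr13:23553262-23560686, plus strand) was, like Hist1h1e, above WT in every VcKO library at 8 weeks. It had 1.97, 1.23, 1.58 and 0.499 FPKM in TPT, 1.47, 1.40 and 1.36 FPKM in VcKO, and 0.459, 0.124 and 1.15 FPKM in WT. VcKO and WT did not overlap and differed by 0.66 ± 0.293, and the WT values rested on 6, 1 and 18 reads. Unlike for Hist1h1e, TPT overlapped VcKO, with a difference of -0.10 ± 0.274, and it overlapped WT, with a difference of 0.57 ± 0.274. At 4 weeks the groups overlapped, at 0.734 to 3.05 FPKM in VcKO and 1.04 to 2.68 FPKM in WT, and at 1.06 to 2.94 FPKM in LcKO and 0.988 to 4.77 FPKM in WT.

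Hist1h1a (H1f1, ENSMUSG00000049539, chr13:23763666-23764406, plus strand), a form known from few tissues, among them thymus and testis, was at 0.700 to 2.53 FPKM in VcKO and 0.702 to 1.19 FPKM in WT at 4 weeks. It was at 0.671 to 1.44 FPKM in LcKO and 0.763 to 1.91 FPKM in WT. At 8 weeks it was at 0.765 to 2.99 FPKM in TPT, 0.828 to 1.22 FPKM in VcKO and 0 to 1.18 FPKM in WT, and all groups overlapped. Hist1h1b (H1f5, ENSMUSG00000058773, chr13:21779883-21780625, minus strand) was at 0.993 to 2.49 FPKM in VcKO and 0.934 to 1.59 FPKM in WT at 4 weeks. It reached 1.35 to 5.89 FPKM in LcKO and 0.412 to 3.95 FPKM in WT. At 8 weeks it did not exceed 0.961 FPKM in TPT, 1.29 FPKM in VcKO or 0.958 FPKM in WT. No comparison separated the groups of either gene. The Hist1h1 genes have similar coding sequences, and how reads that match several of them were counted is not stated in the labels.

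**Figure D2:**
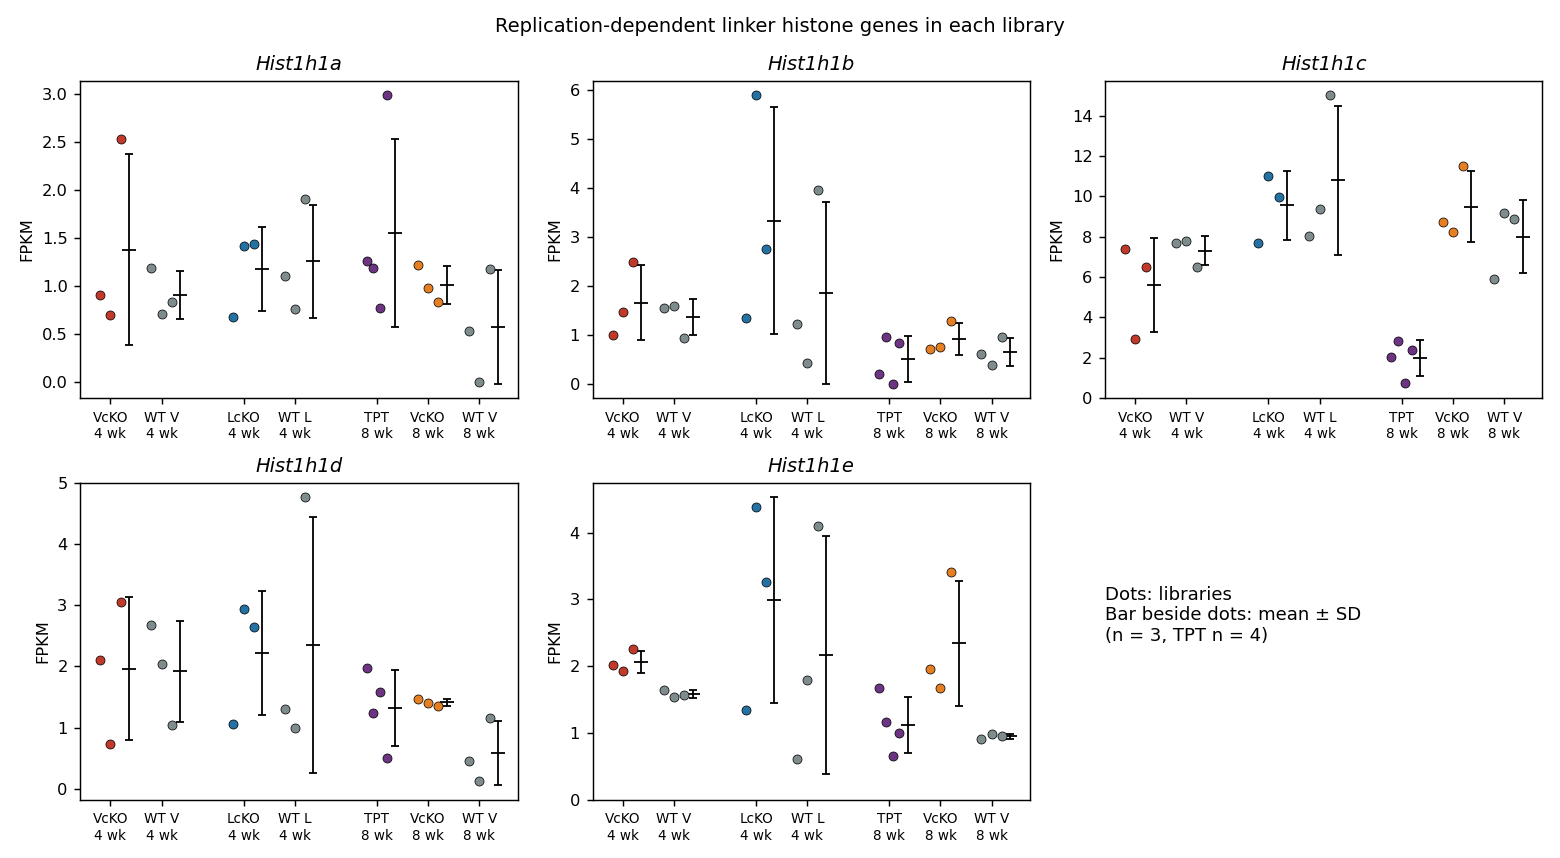
FPKM of the 5 replication-dependent linker histone genes in each library; dots are libraries and the bar beside them is the mean ± SD of the group (n = 3, and 4 for TPT). Hist1h1c in TPT, at 0.755 to 2.84 FPKM, lies below the 8-week VcKO and WT libraries, while most other groups overlap.

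Across the 3 tables, which were normalised separately and are set side by side only as levels, H1f0 averaged 156 ± 61.8 FPKM in VcKO at 8 weeks, the highest group (SD, n = 3). The Lck table followed, with 74 ± 8.25 FPKM in WT and 70.0 ± 12.5 FPKM in LcKO. TPT averaged 55.0 ± 93.3 FPKM with a median of 10 FPKM. WT of the Vav tables had 50.2 ± 14.0 FPKM at 4 weeks and 31.1 ± 10.4 FPKM at 8 weeks, and VcKO at 4 weeks was lowest at 19.3 ± 2.99 FPKM. The ranges of neighbouring groups in that order overlapped, except between the highest and the next group and between the lowest and the one above it. For H1fx the order was LcKO at 24.1 ± 5.76 FPKM, WT of the Lck table at 19.3 ± 5.28 FPKM, WT at 4 weeks at 12.8 ± 2.74 FPKM and WT at 8 weeks at 9.73 ± 1.38 FPKM. TPT at 3.35 ± 6.48 FPKM, VcKO at 8 weeks at 2.58 ± 2.10 FPKM and VcKO at 4 weeks at 1.80 ± 1.16 FPKM followed, and the ranges of all neighbours overlapped.

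A gene was called at an adjusted p threshold of 0.05, from limma over all genes that reached 1 FPKM in at least 3 libraries of a table. At 4 weeks 6 of the 7 linker histone genes passed that filter in the Vav table. Of these 0 were called higher in VcKO and 2 lower, H1f0 and H1fx, where 7.63% of 10828 genes were called higher and 6.08% lower. In the Lck table all 7 passed, and 0 were called in either direction in LcKO, where 0.201% of 10946 genes were called higher and 0.804% lower. At 8 weeks 6 passed. For VcKO against WT 0 were called, where 4.65% of 11632 genes were called higher and 4.45% lower. For TPT against WT 1 was called lower, Hist1h1c, where 4.59% were called higher and 4.6% lower. For TPT against VcKO 0 were called, where limma called 0% of all genes higher and 0% lower, 681 genes had an unadjusted p under 0.05, and voom on recovered reads also called 0 genes. Since the members were chosen on these comparisons, nothing is read from their counts.

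The spread of the 8-week fit, which is shared by its 3 groups, depended on TPT replicate 2. Without that library H1f0 was called higher and H1fx lower in VcKO against WT with the same differences of 2.27 and -1.81, 3 genes (H1f0, H1fx and Hist1h1c) were called lower in TPT against WT, and H1f0 was called lower in TPT against VcKO. Without TPT replicate 3, Hist1h1e was called higher in VcKO against WT. The call of Hist1h1c in TPT was lost without WT replicate 2 or WT replicate 3, at differences of -1.52 and -1.54. The median difference over the members that passed was -0.21 in VcKO at 4 weeks, 0.06 in LcKO, 0.54 in VcKO at 8 weeks, -0.29 in TPT against WT and -0.59 in TPT against VcKO. Over all genes tested the medians lay between -0.013 and 0.016. The 8-week comparisons share libraries and are not independent of each other.

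**Figure D3:**
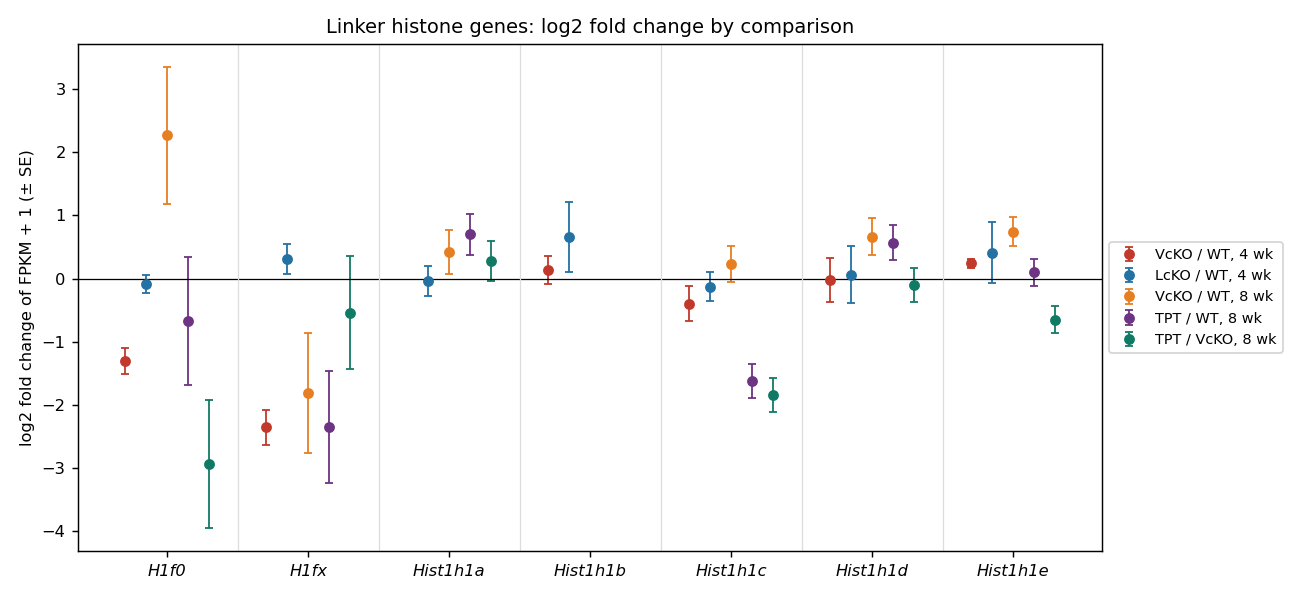
Difference of each linker histone gene in each comparison, as log2 fold change of FPKM + 1 with its SE, first-named group over second; genes that did not pass the filter have no point. H1f0 lies at -1.31 in VcKO at 4 weeks and at 2.27 at 8 weeks, and H1fx is negative in every comparison but that of LcKO.

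The summed level of the 7 genes followed H1f0. Their FPKM summed to 37.5, 29.9 and 33.8 in VcKO at 4 weeks, against 96.8, 69.9 and 61.5 in WT. The sum was 89.1, 138 and 113 in LcKO, against 107, 103 and 125 in WT. At 8 weeks it was 12.4, 215, 14.7 and 17.0 in TPT, 127, 243 and 151 in VcKO, and 42.4, 45.2 and 66.9 in WT. VcKO was below WT at 4 weeks and above it at 8 weeks in every library, and LcKO overlapped WT. These are levels of RNA per kilobase, not of protein.

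The share of each gene in that sum also differed. H1f0 made up 84.8% to 93.4% in VcKO at 8 weeks and 56.2% to 64.2% in WT, whereas TPT ran from 41% to 90.5%. At 4 weeks H1f0 was 46.8% to 70.4% in VcKO and 63.6% to 68.4% in WT. H1fx made up 8.36%, 3.62% and 3.48% in VcKO at 4 weeks, against 16.4%, 16.9% and 17.4% in WT. At 8 weeks it was 1.46%, 6.07%, 0% and 0.896% in TPT, 0.236%, 1.23% and 2.95% in VcKO, and 24.0%, 18.1% and 16.2% in WT. No VcKO or TPT library reached the H1fx share of any WT library of its table. A share also depends on H1f0: TPT replicate 2 had 13.1 FPKM of H1fx, above the 8.19 to 10.8 FPKM of WT, beside 195 FPKM of H1f0. In VcKO at 8 weeks the H1fx shares likewise come from sums with 113 to 227 FPKM of H1f0. In LcKO the share of H1fx was 19.8% to 22.9%, within the 11.8% to 24.3% of WT. The 5 Hist1h1 genes together summed to 7.78 to 16.8 FPKM in VcKO and 10.9 to 14.7 FPKM in WT at 4 weeks, so their larger share in VcKO, 26.0% to 49.7% against 15.2% to 19.5% in WT, came with overlapping levels. In TPT their sum was 3.76 to 7.69 FPKM, below the 13.0 to 18.4 FPKM of VcKO and the 8.43 to 13.1 FPKM of WT. TPT replicate 3 had the lowest of these sums, and the other 3 TPT libraries, at 7.11 to 7.69 FPKM, were also below all VcKO and WT libraries.

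**Figure D4:**
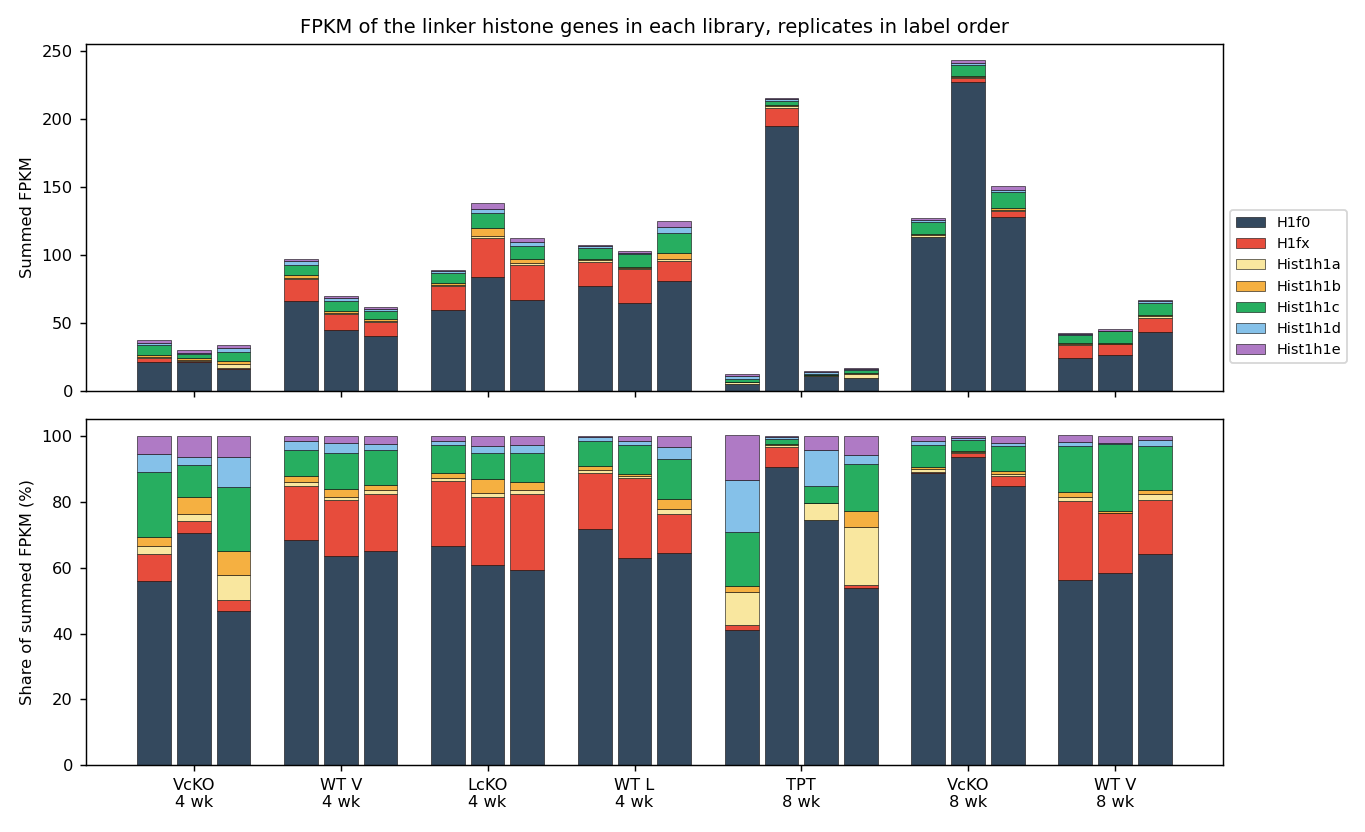
Summed FPKM of the 7 linker histone genes in each library (top) and the share of each gene in percent of that sum (bottom); each bar is 1 library, grouped by condition. H1f0 makes up 84.8% to 93.4% in VcKO at 8 weeks, and the H1fx share is at most 8.36% in all VcKO and TPT libraries against at least 11.8% in WT. The TPT library with an H1fx share of 6.07% has 13.1 FPKM of H1fx, above every 8-week WT library.

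Genes that act with linker histones were tested in the same fits. At 4 weeks 3 of 7 linker histone chaperones, proteins that carry H1 or place it on chromatin, rose in VcKO and none fell. Npm1 averaged 105 ± 16.4 FPKM in VcKO and 69.8 ± 4.76 FPKM in WT (SD, n = 3 each; adjusted p = 0.0251, limma). Set averaged 36.3 ± 2.34 FPKM in VcKO and 25.6 ± 2.46 FPKM in WT (adjusted p = 0.0151, limma), and Nap1l1 78.3 ± 7.82 FPKM in VcKO and 61.1 ± 4.17 FPKM in WT (adjusted p = 0.0484, limma). With single libraries left out, Set stayed called in 4 of 6 fits (lost without VcKO replicate 3 or WT replicate 3, highest adjusted p = 0.0557, limma) and Npm1 in 2 of 6 (lost without VcKO replicate 3 or any WT library, highest adjusted p = 0.0955). Nap1l1 stayed called in 0 of 6 (highest adjusted p = 0.146, limma). The median over the list was 0.26 in VcKO. In LcKO, in VcKO at 8 weeks and in both TPT comparisons 0 of 7 passed the test, with medians of 0.20, 0.57, 0.31 (TPT against WT) and -0.26 (TPT against VcKO). The 8-week counts against WT depended on single TPT libraries. The chaperone sum of TPT replicate 3 was 454 FPKM, against 1169 to 1440 FPKM in the other TPT libraries, 1147 to 1306 FPKM in VcKO and 769 to 832 FPKM in WT. Without TPT replicate 3, 6 of 7 chaperones were called higher both in VcKO and in TPT against WT (limma), with medians of 0.57 and 0.61, and 0 of 7 in TPT against VcKO. Without TPT replicate 1, 2 of 7, Nap1l1 and Npm1, were called higher in VcKO against WT and 0 of 7 in TPT against WT.

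The core histone genes of the histone clusters, listed by symbol, mostly did not pass the test. The list also holds genes of clusters other than that of Hist1h1, among them Hist2h2be and Hist3h2a. Whether each listed gene is transcribed in S phase was not tested. At 4 weeks 16 of 61 were measured above the filter in the Vav table, and 1 rose in VcKO, Hist1h4b, by 0.48 ± 0.115 (adjusted p = 0.0398, limma), a call lost without any 1 of the WT libraries (highest adjusted p = 0.144). In LcKO 0 of 25 passed the test. At 8 weeks 1 of 27 changed in VcKO: Hist2h2be fell by 0.92 ± 0.221 (adjusted p = 0.0347, limma). In TPT against WT, Hist2h2be fell by 1.33 ± 0.207 (adjusted p = 0.00516, limma), Hist3h2a fell by 0.93 ± 0.191 (adjusted p = 0.0189, limma) and Hist1h2ai rose by 0.87 ± 0.207 (adjusted p = 0.0321, limma). The fall of Hist2h2be in TPT held in 10 of 10 fits with a library left out. The calls of Hist3h2a and Hist1h2ai in TPT and of Hist2h2be in VcKO were lost without any 1 of the WT libraries, that of Hist2h2be in VcKO also without any VcKO library, and that of Hist1h2ai also without VcKO replicate 3 or TPT replicate 1 or 2. Without TPT replicate 3, 3 of 27 were called higher and 2 lower in VcKO, and 3 higher and 3 lower in TPT against WT, where 6 genes, Hist1h2ai, Hist1h3a, Hist1h3c, Hist2h2be, Hist2h4 and Hist3h2a, were called (limma). The summed FPKM of the core genes was 35.4 to 83.6 in VcKO and 42.4 to 59.2 in WT at 4 weeks. It was 21.1 to 70.0 in TPT, 49.4 to 70.1 in VcKO and 39.7 to 53.1 in WT at 8 weeks.

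In the Lck table the libraries with the highest Hist1h1 sums also had the highest core histone sums, regardless of genotype. LcKO replicates 2 and 3 had 25.6 and 20.1 FPKM of Hist1h1 and 93.5 and 90.4 FPKM of core genes. WT replicate 3 had 29.7 FPKM of Hist1h1 and 91.9 FPKM of core genes. The remaining LcKO library and both remaining WT libraries had 12.1 to 13.3 FPKM of Hist1h1 and 56.7 to 60.8 FPKM of core genes. In the Vav table at 4 weeks VcKO replicate 2 was lowest in both sums. VcKO replicate 1 had the highest core sum, 83.6 FPKM, and replicate 3 the highest Hist1h1 sum, 16.8 FPKM. At 8 weeks VcKO replicate 3 was highest and TPT replicate 3 lowest in both sums. TPT replicates 1 and 2 had core sums of 61.8 and 70.0 FPKM, above every WT library. Their Hist1h1 sums, 7.11 and 7.39 FPKM, were below every WT library.

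Cycling genes were compared because the Hist1h1 genes are transcribed in S phase. Of 21 S phase genes 0 passed the test in LcKO, in VcKO at 8 weeks or in either TPT comparison. Of 12 mitosis genes 0 passed in any comparison. The 8-week counts of 0 against WT rested on TPT replicate 3. Without it 15 of 21 S phase genes were called higher and 1 lower in VcKO, and 16 higher and 1 lower in TPT against WT (limma). The genes called included all 6 listed genes of the replicative helicase, Mcm2, Mcm3, Mcm4, Mcm5, Mcm6 and Mcm7. Without it 1 mitosis gene, Ccnb2, was called lower in VcKO, and 4 were called lower in TPT against WT, Aurka, Ccnb2, Mki67 and Tpx2. No gene of either list was called in TPT against VcKO with or without it. The median difference of the S phase list was 0.17 in VcKO at 4 weeks, 0.18 in LcKO, 0.71 in VcKO at 8 weeks, 0.34 in TPT against WT and -0.37 in TPT against VcKO. That of the mitosis list was -0.01, 0.18, -0.10, -0.71 and -0.67 in the same order. Without TPT replicate 3 the S phase medians were 0.79 in TPT against WT and 0.05 in TPT against VcKO, and the mitosis medians were -0.23 and -0.21.

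Of 12 genes of chromatin compaction, Smarca4, the ATPase of a nucleosome remodelling complex, fell in every comparison with WT. It changed by -0.56 ± 0.0909 in VcKO at 4 weeks (adjusted p = 0.0118, limma), by -0.43 ± 0.0589 in LcKO (adjusted p = 0.0358), by -0.64 ± 0.104 in VcKO at 8 weeks (adjusted p = 0.00749) and by -0.72 ± 0.0975 in TPT (adjusted p = 0.00259). Cbx5, which encodes heterochromatin protein HP1 alpha, rose by 0.27 ± 0.0563 in VcKO at 4 weeks (adjusted p = 0.0274, limma), a call that held in 1 of 6 fits with a library left out, that without VcKO replicate 2. For Smarca4 the calls in VcKO at 4 weeks (6 of 6 fits) and in TPT (10 of 10) did not depend on a library. The call in VcKO at 8 weeks was lost without any 1 of the WT libraries (highest adjusted p = 0.0619, limma), and that in LcKO without any 1 of the 6 libraries (highest adjusted p = 0.170). The other 10 genes, among them the H3K27 methyltransferase gene Ezh2 and the maintenance methyltransferase gene Dnmt1, did not pass in any comparison. Without TPT replicate 3 the genes called at 8 weeks were Cbx5, Ctcf, Dnmt1 and Smarca4, 2 higher and 2 lower, both in VcKO and in TPT against WT.

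Genes listed as markers of the double-positive stage also differed between the groups. Among them, Ptcra is best known from the stage before it and Cd3e is expressed by T cells generally. A fall of either is therefore not by itself a change of that stage. At 4 weeks 5 of 9 double-positive markers fell in VcKO, led by Ptcra at -1.21 ± 0.127 (adjusted p = 0.00354, limma), Rag2 at -0.61 ± 0.0939 (adjusted p = 0.0101) and Arpp21 at -0.54 ± 0.0507 (adjusted p = 0.00277). In LcKO 1 of 9 fell, Ptcra, by 0.78 ± 0.0976 (adjusted p = 0.0270, limma), a call that held in 1 of 6 fits with a library left out, that without LcKO replicate 3. At 8 weeks 2 of 9 fell in both TPT and VcKO. Rag2 changed by -3.28 ± 0.502 in TPT (adjusted p = 0.00490, limma) and by -3.32 ± 0.537 in VcKO (adjusted p = 0.00734). Rag1 changed by -1.54 ± 0.361 in TPT (adjusted p = 0.0308, limma) and by -1.45 ± 0.386 in VcKO (adjusted p = 0.0475). The calls of Rag1 held in 2 (TPT) and 3 (VcKO) of 10 fits with a library left out, and those of Rag2 in all 10 (TPT) and in 9 (VcKO, lost without WT replicate 2). Without TPT replicate 3, 8 of 9 were called lower in TPT and 5 of 9 in VcKO. At 4 weeks Rag2 in VcKO was likewise lost without WT replicate 2, at an adjusted p of 0.0522 (limma).

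Markers of other cell types differed as well. At 4 weeks the 6 dendritic cell markers summed to 1.61 to 3.11 FPKM in VcKO and 0.602 to 0.83 FPKM in WT, and the 8 macrophage and granulocyte markers to 1.72 to 2.81 FPKM in VcKO and 0.9 to 1.29 FPKM in WT. The 7 B cell markers summed to 69.4 to 138 FPKM in VcKO and 168 to 183 FPKM in WT at 4 weeks, and to 96.6 to 123 FPKM in TPT, 95.2 to 128 FPKM in VcKO and 184 to 221 FPKM in WT at 8 weeks. Most of these 8-week sums was Ighm alone, which averaged 111 FPKM in TPT, 107 FPKM in VcKO and 196 FPKM in WT. Only 1 of the 7 reached 1 FPKM in all libraries of VcKO or TPT, and 2 in WT. Pax5 and Ms4a1 were at 0 in all VcKO libraries of both ages, and Pax5 in all TPT libraries. Both were also at 0 in all libraries of LcKO and of its WT, so such values are not particular to VcKO and TPT. Cd79b, which encodes a chain of the B cell receptor, fell in VcKO and TPT. It changed by -2.37 ± 0.0988 in VcKO at 4 weeks (adjusted p = 0.000267, limma), by -2.28 ± 0.239 in TPT (adjusted p = 0.000669) and by -2.71 ± 0.256 in VcKO at 8 weeks (adjusted p = 0.000551), and these calls held in every fit with a library left out. The 7 thymic stroma markers summed to 11.7 to 13.6 FPKM in VcKO and 9.15 to 10.8 FPKM in WT at 4 weeks, and to 11.4 to 13.5 FPKM in TPT, 11.4 to 15.1 FPKM in VcKO and 8.72 to 9.4 FPKM in WT at 8 weeks. Of these Epcam, an epithelial adhesion gene, fell by 0.80 ± 0.0814 in VcKO at 4 weeks (adjusted p = 0.00326, limma). Pecam1, an endothelial adhesion gene that blood cells also express, rose by 0.50 ± 0.0895 in VcKO at 4 weeks (adjusted p = 0.0156, limma), by 0.56 ± 0.124 in TPT (adjusted p = 0.0249) and by 0.71 ± 0.133 in VcKO at 8 weeks (adjusted p = 0.0129). The calls of Pecam1 held in 3 of 6, 7 of 10 and 5 of 10 fits with a library left out, in that order, and each was lost without WT replicate 2 or 3. At 8 weeks the dendritic markers summed to 2.95 to 5.34 FPKM in TPT, 4.99 to 8.60 FPKM in VcKO and 2.10 to 2.37 FPKM in WT. The macrophage and granulocyte markers summed to 2.12 to 21.8 FPKM in TPT, 2.54 to 8.90 FPKM in VcKO and 0.71 to 3.75 FPKM in WT, with Elane at 0 in TPT and Mpo, Elane, S100a8 and S100a9 at 0 in VcKO. The 6 erythroid markers summed to 29.2 to 72.6 FPKM in TPT, 3.52 to 16.7 FPKM in VcKO and 14.2 to 31.8 FPKM in WT. Their part in the linker histone values was not tested, and in bulk RNA fewer cells with a transcript cannot be told apart from less transcript per cell.

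Genes whose pattern was most like that of a linker histone gene were ranked by Pearson's r over 22 libraries, on log2(FPKM + 1) minus the mean of the WT libraries of the same table. Only genes that passed the filter in all 3 tables (8945) were compared, which left out Hist1h1a and Hist1h1b. Libraries of 1 group share their genotype and table, so r is a description and has no p. Hist1h1c was most like H3f3b, which encodes the replacement histone H3.3, with r = 0.948 (Spearman's rho = 0.886), followed by Cnp (0.892) and Mns1 (0.884). H3f3b was 81.6, 95.3, 64.8 and 98.0 FPKM in TPT, 145, 126 and 172 FPKM in VcKO, and 116, 129 and 136 FPKM in WT at 8 weeks. As for Hist1h1c, all TPT libraries were below the others, and at 4 weeks VcKO replicate 2, at 103 FPKM, was the lowest library of both genes.

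H1fx was most like Bmyc, with r = 0.920 (rho = 0.756), Pde4dip (0.916) and Bex3 (0.893). None of these was among the 10 genes with the highest rho, and the median size of r with H1fx over all genes compared was 0.365. Bmyc, related in sequence to the Myc genes, was 0, 1.30, 0 and 0.0629 FPKM in TPT, 0.372, 1.06 and 0.541 FPKM in VcKO, and 1.33, 1.78 and 1.69 FPKM in WT at 8 weeks. Bmyc did not exceed 2.01 FPKM in any library. TPT replicate 2 was thus high among the TPT libraries in Bmyc too, and in Bex3, at 24 FPKM against 4.18 to 6.04 FPKM in the others. The ranking without that library was not made. H1f0 was most like Ick (r = 0.868, rho = 0.779), Plscr3 (0.862) and Nek9 (0.857), of which the first and last encode protein kinases. Nek9 moved over a narrow range, at 31.4 to 40.1 FPKM in TPT, 34.7 to 37.9 FPKM in VcKO and 31.7 to 35.5 FPKM in WT at 8 weeks. In each of these genes TPT replicate 2 was above the other TPT libraries. It had 2.44 FPKM of Ick against 1.33 to 1.42 FPKM, and 12 FPKM of Plscr3 against 5.68 to 7.53 FPKM. For Nek9 it had 40.1 FPKM against 31.4 to 32.2 FPKM. Ick did not exceed 2.44 FPKM in any library. Hist1h1e was most like the core histone gene Hist1h4b (r = 0.805, rho = 0.809) and Hist1h1d like Gtf3c3 (r = 0.745, rho = 0.796). Between members, the 10 pairs ran from r = -0.27 for H1fx with Hist1h1d (rho = -0.29) to 0.57 for Hist1h1d with Hist1h1e (rho = 0.56). H1fx with Hist1h1c had r = 0.55 but rho = 0.28, H1f0 with Hist1h1c had 0.45 (rho = 0.63), and H1f0 with H1fx 0.40 (rho = 0.49). H1fx with Hist1h1e (-0.08) and Hist1h1c with Hist1h1d (-0.04) were near 0.

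**Figure D5:**
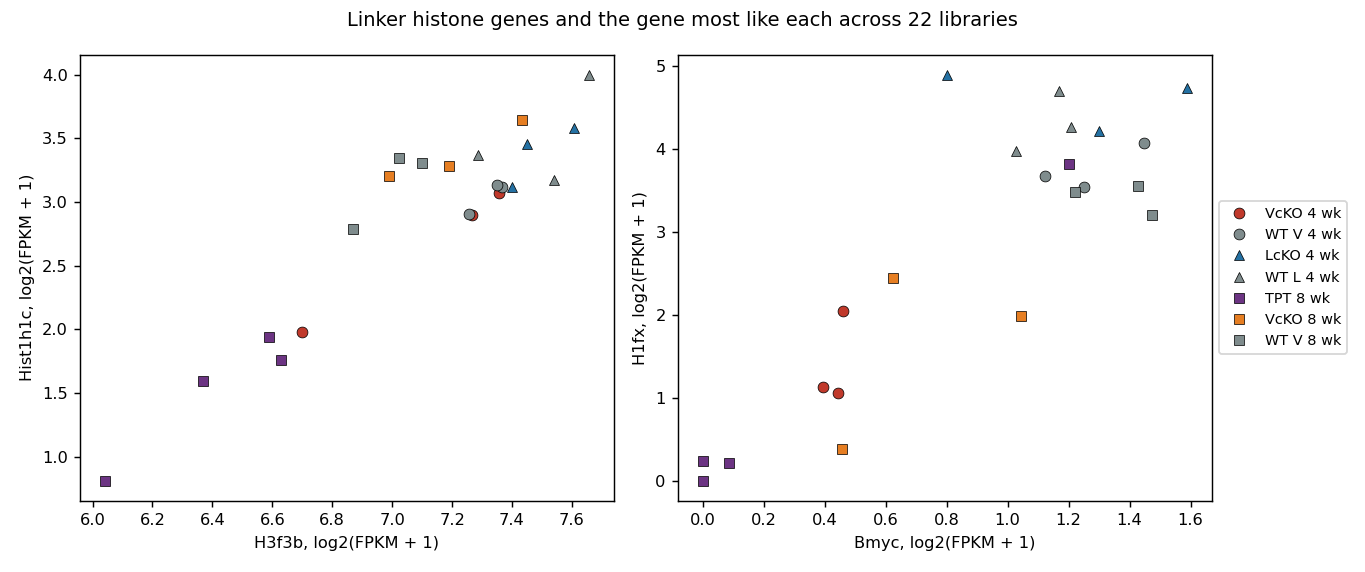
Level of Hist1h1c against H3f3b (left) and of H1fx against Bmyc (right) as log2(FPKM + 1); each point is 1 of 22 libraries, coloured by group and shaped by table. The 4 TPT libraries have the lowest H3f3b values, 64.8 to 98.0 FPKM, and 3 of them have Bmyc at 0 to 0.0629 FPKM.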

How the data were processed

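Per the labels, RNA from RNeasy mini kits was the input of 22 libraries built with NuGEN's Ovation Ultralow kit. The authors deposited FPKM per gene in 3 tables normalised separately. The submitters' processing notes name Trimmomatic 0.33, STAR, HTSeq 0.6.1, DESeq2 and the build mm10 without role or order. The strand setting and the gene lengths were not stated. Of 12274 genes, 12247 (99.8%) gave whole reads in all libraries for some whole-number gene length (tolerance 0.01). The lengths for the members, 642 to 2287 bases, gave whole reads in 22 of 22 libraries (tolerance 0.001), and the read counts printed come from them.

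The test was limma 3.58.1 with an intensity trend, run in R 4.3.3 on log2(FPKM + 1) of genes with at least 1 FPKM in 3 or more libraries of a table. This scale understates changes of low genes. The Benjamini-Hochberg adjustment ran over all genes, and an adjusted p under 0.05 was called. Each 4-week comparison used the 6 libraries of its table, and the 8-week comparisons used 1 fit of 10 libraries. The model was tested on simulated data. The members and gene lists were chosen with earlier results of these data known. Named were all members, the called genes with the 3 largest changes of each list and comparison, and the 3 genes most like each member. Results of 2 listed genes, with the count of S phase genes called in VcKO at 4 weeks, are not reported here. Gene positions come from GENCODE M21 on mm10, promoters from RefSeq on GRCm38.p6. The alternatives covered the filter (none, or a mean of 5 FPKM), a pseudocount of 0.1, other scalings, a replicate block, leaving out each library and, chosen after seeing the data, limma voom on the recovered reads.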

Additional observations from a re-analysis of the deposited data

Results flagged for a closer look

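H1f0 was 195 FPKM in TPT replicate 2 and 5.06 to 10.9 FPKM in the other 3 TPT libraries, and the gap to the next library was 0.969 of the range of the group, above Dixon's 95% critical value for a group of 4. H1fx was 13.1 FPKM in the same library and 0 to 0.181 FPKM in the other 3, with a gap of 0.986 of the range. The 7 genes were examined in this way in the TPT group, and chance alone marks about 1 group in 20. In Hist1h1c the same library, at 2.84 FPKM, lay close to the other TPT libraries.

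The effect of the Vav deletion on H1f0 was the opposite at the 2 ages. Every VcKO library was below every WT library at 4 weeks and above every WT library at 8 weeks, and the 8-week difference minus the 4-week difference was 3.58 on the log2 scale. That difference was not tested. The sexes of the libraries and the level of chromosome 15, given with the results, also differed between the 8-week groups.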

How the results depend on the processing

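Since the linker histone genes were chosen on these comparisons, how often they were called is a description and not a sign of stability. H1f0 and H1fx were called lower in VcKO at 4 weeks under the alternatives run, and 0 linker histone genes were called in LcKO. With one library left out, the linker histone genes called ranged from 0 to 2 for VcKO against WT at 8 weeks (2 without TPT replicate 2, 1 without TPT replicate 3), from 0 to 3 for TPT against WT (3 without TPT replicate 2, 0 without WT replicate 2 or 3) and from 0 to 1 for TPT against VcKO (1 without TPT replicate 2). Where a group kept 2 libraries, the fit pooled the spread over groups. Of 490 alternative values of single members, 466 stayed within the spread between replicates and 24 moved. All 24 moved to a larger size and under a pseudocount of 0.1 or on recovered reads, and 0 called values changed sign. Leaving out a library could not count as a move, because the spread included the library left out. A change of filter leaves these values as they are. The 466 are therefore no sign of stability. The sign changed in 20 values that were not called.

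The count of all genes called was 1484 for VcKO at 4 weeks, 110 for LcKO, 1059 for VcKO at 8 weeks, 1069 for TPT against WT and 0 for TPT against VcKO. A mean filter of 5 FPKM gave 927 for VcKO at 4 weeks, 653 at 8 weeks and 575 for TPT against WT. No filter gave 63 for LcKO and 3 for TPT against VcKO, and recovered reads gave 387 for LcKO. Leaving out single libraries gave 490 to 1560 for VcKO at 4 weeks, 2 to 83 for LcKO, 142 to 3535 for VcKO at 8 weeks, 199 to 3814 for TPT against WT and 0 to 5 for TPT against VcKO. The lowest counts came without WT replicate 2 (VcKO at both ages and TPT against WT) and WT replicate 1 (LcKO), and the highest at 8 weeks without TPT replicate 3 (VcKO and TPT against WT) or TPT replicate 2 (TPT against VcKO). The cause was not tested. Scaling to the same FPKM sum moved the median of all genes to -0.124 in VcKO at 8 weeks. It took the share of higher calls to 37.5% from 55.7% in VcKO at 4 weeks and to 4.4% from 20% in LcKO, where median-of-ratios scaling gave 11.7% and recovered reads 39.5%.

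Groups share replicate numbers, but same-numbered libraries did not deviate together (correlations of -0.11 to 0.18), so the numbers were not taken as pairs. With a replicate block the calls were 894 for VcKO at 4 weeks, 4 for LcKO, 568 for VcKO at 8 weeks and 568 for TPT against WT, and the linker histone genes called were as many as without it. Depth limits Hist1h1a, Hist1h1b, Hist1h1d and Hist1h1e, whose values rested on 81 reads at most.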

Other observations

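The germline linker histone genes H1foo, Hist1h1t, H1fnt and Hils1, known from oocytes and testis, were not part of the thymocyte set: 0 of 4 passed the filter in any table. Their summed FPKM was 0.0335 to 0.176 in VcKO and 0.0581 to 0.0762 in WT at 4 weeks, and at most 0.154 in TPT, 0.0401 in VcKO and 0.0203 in WT at 8 weeks.

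The replacement core histones, made outside S phase like H1f0 and H1fx, had 8 of 9 genes above the filter, of which 0 passed the test in any comparison (1, H3f3b, was called lower in TPT against WT without TPT replicate 3). Their median difference was -0.02 in VcKO at 4 weeks, 0.09 in LcKO, -0.10 in VcKO at 8 weeks and -0.36 in TPT against WT. Of 11 measured genes of histone mRNA processing, among them the stem-loop binding protein gene Slbp, 0 passed in any comparison, and their medians lay between -0.05 and 0.03; without TPT replicate 3, Cpsf3 was called higher in VcKO and in TPT against WT. Of the HMG chromatin proteins, which bind nucleosomes and linker DNA, Hmga1 rose by 0.31 ± 0.0694 in VcKO at 4 weeks (adjusted p = 0.0331, limma), a call lost in 6 of 6 fits with a library left out (highest adjusted p = 0.111), and 0 passed in the other 4 comparisons. Without TPT replicate 3, 4 of 8 were called higher in VcKO at 8 weeks (Hmga1, Hmgb3, Hmgn1 and Parp1) and 3 in TPT against WT (Hmga1, Hmgn1 and Parp1). Parp1 was part of that list but does not encode an HMG protein. Beside these counts of 0, the limma test had an unadjusted p under 0.05 for 3239 genes in VcKO at 4 weeks, 1503 in LcKO, 3417 in VcKO at 8 weeks, 3028 in TPT against WT and 681 in TPT against VcKO.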
